A study of Mus musculus with 18 samples.

Results

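The 3p and SP siRNAs are pools that both target *Stag1*, and the 4 libraries transfected with them in replicate sets 2 and 3, of 18 samples in the series, were compared here pair by pair within each set. SP is a commercial SmartPool to *Stag1*, and 3p is a pool to the 3′ end of the *Stag1* mRNA. According to the methods, each catalogue number listed for the 3p pool has an ending also listed for the SP pool, under another prefix. The SP pool lists further endings. All siRNAs of the 3p pool may therefore also be in the SP pool, which is not stated, and their sequences were not used here. All cells were male E14 mESCs (mouse embryonic stem cells) grown in serum (FCS) with LIF, and siRNAs acted for 24 h. Each of the sets 2 and 3 also held 1 library of scrambled siRNA (scr), 1 of 5p siRNA to the 5′ end of *Stag1* and 1 of SATS, an enzymatically made siRNA mixture to the 5′ UTR of *Stag1*. These 10 libraries entered a single fit. The libraries of untreated cells (set 2), of luciferase siRNA (Luc, set 3) and of set 1 (scr and 3 of SP) served as levels only. The E14 line is 1 cell line, and nothing in the labels says that the sets were separate cultures. The paper calls the replicate libraries of the 3p, 5p and SATS knockdowns independent, without saying at which step. The p-values therefore measure the spread between these libraries, which may be technical.

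*Stag1* encodes a STAG (or SA) subunit of cohesin, the ring-shaped complex of Smc1a, Smc3 and Rad21 that holds sister chromatids together and forms chromatin loops. *Stag2* encodes the other STAG subunit of somatic cells, and a cohesin ring carries either of them. An siRNA guides Argonaute to a fully paired target, which is cut. The same siRNA can also lower other mRNAs whose 3′ UTR pairs with the seed of its guide strand, that is bases 2 to 8, as a microRNA does, so that siRNAs of different sequence to the same gene usually differ in these other targets.

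The values are reads on genes divided by a size factor for each library, here called scaled reads. In sets 2 and 3, 36034766 and 34824093 reads fell on genes under 3p, and 32960532 and 41490212 under SP. The 10 fitted libraries held 32137666 to 45660840, of which *Rn45s*, the rRNA precursor, took 14.7% to 23.9%. The pluripotency markers of mESCs were high in the 3p and SP libraries, with *Pou5f1* at 7536 to 8419 scaled reads, *Sox2* at 2191 to 3392, *Nanog* at 2011 to 3356 and *Zfp42* at 1818 to 3925. Markers of trophectoderm and of fibroblasts moved more between the sets than among 3p, SP and scr. The trophectoderm markers summed to 24618, 23251 and 26623 scaled reads under 3p, SP and scr in set 2, and to 7662, 7093 and 8118 in set 3.

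The first comparison asked how far the pools lowered their target. *Stag1* (chr9:100597798-100959375, plus strand, GRCm38) fell to the same level under both. The 3p libraries held 392 and 365 scaled reads of *Stag1* in sets 2 and 3, the SP libraries 406 and 371, and the scr libraries 1876 and 2113. This left 20.9% and 17.3% of scr under 3p and 21.6% and 17.5% under SP, and no library of either pool overlapped with scr. The log2 difference between 3p and SP was −0.036 (95% interval −0.24 to 0.17, limma, adjusted p = 0.991), and its sign depended on the libraries used, being 0.022 without 3p replicate 3 and 0.039 without SP replicate 2. For 3p and SP together against scr it was −2.38 (SE 0.084, limma, adjusted p = 2.4e-09). The 5p libraries held 441 and 401, and the difference of both pools from 5p was −0.14 (SE 0.084, limma, adjusted p = 0.385).

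*Stag2* (chrX:42149317-42277185, plus strand), the paralog, had 2004 and 3265 under 3p, 1895 and 3287 under SP, and 1811 and 2895 under scr in sets 2 and 3, so that the sets differed more than the siRNAs did. The log2 difference between 3p and SP was 0.035 (95% interval −0.15 to 0.22, limma, adjusted p = 0.991), and −0.0094 without SP replicate 2. Against scr, both pools together gave 0.14 (SE 0.073, limma, adjusted p = 0.431). The 5p libraries held 1434 and 2092, below both pools in each set, and the pools stood 1.46-fold higher than 5p (log2 0.54 (SE 0.073, limma, adjusted p = 0.000608)).

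**Figure D1:**
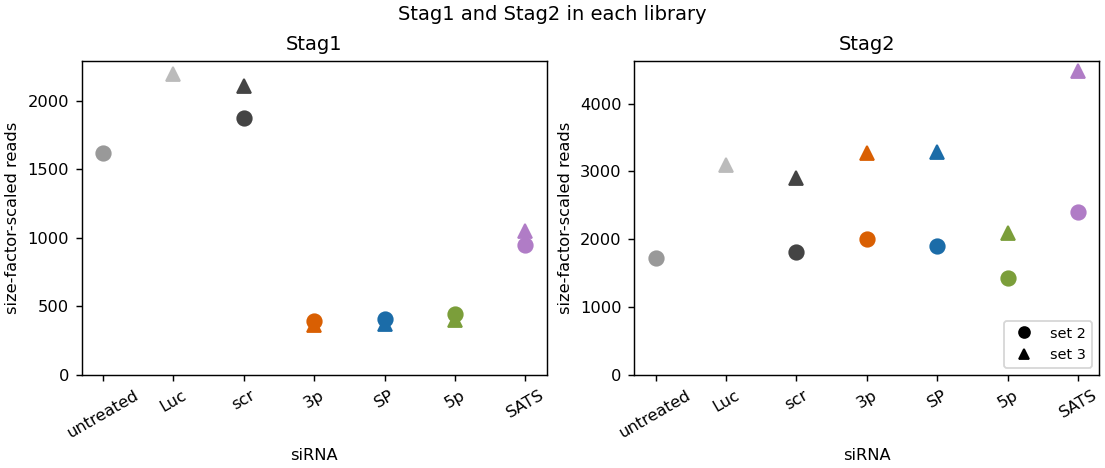
Scaled reads (y axis, from 0) of *Stag1* (left) and *Stag2* (right) in each library of sets 2 (circles) and 3 (triangles) by siRNA (x axis). The 3p and SP points of *Stag1* lie on top of each other between 365 and 406, with 5p just above, SATS higher and scr at 1876 and 2113, and for *Stag2* the 3p and SP points coincide within each set.

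Across the transcriptome, the 3p and the SP library of the same set were the most alike of the siRNA groups. Over 11019 genes with a mean of at least 50 scaled reads, the median absolute log2 difference between the 3p and the SP library was 0.0901 in set 2 and 0.0849 in set 3, the smallest of the 10 pairs of siRNA libraries in each set. In set 2 it was 0.102 between 3p and scr, 0.115 between SP and scr, and 0.115 between 3p and 5p. In set 3 the same pairs gave 0.122, 0.131 and 0.159. Only 2 genes differed 2-fold or more between 3p and SP in each set. The spread between controls was of a like size, with 0.0965 between scr and untreated cells in set 2 and 0.0722 between scr and Luc in set 3.

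The difference between the pools was nevertheless shared by the sets. Its log2 value correlated at r = 0.41 between sets 2 and 3 across these 11019 genes, with no library in common. Genes are not independent replicates, and no test was made. It had the same sign in both sets for 63.4% of the genes. A log2 difference of 0.5 or more in both sets was seen in 33 genes that were higher under 3p and in 1 that was lower. The 95% interval of the difference lay within ±0.5 (log2) for 9985 of the 11019 genes (90.6%) and within ±1 for 10998 (99.8%).

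**Figure D2:**
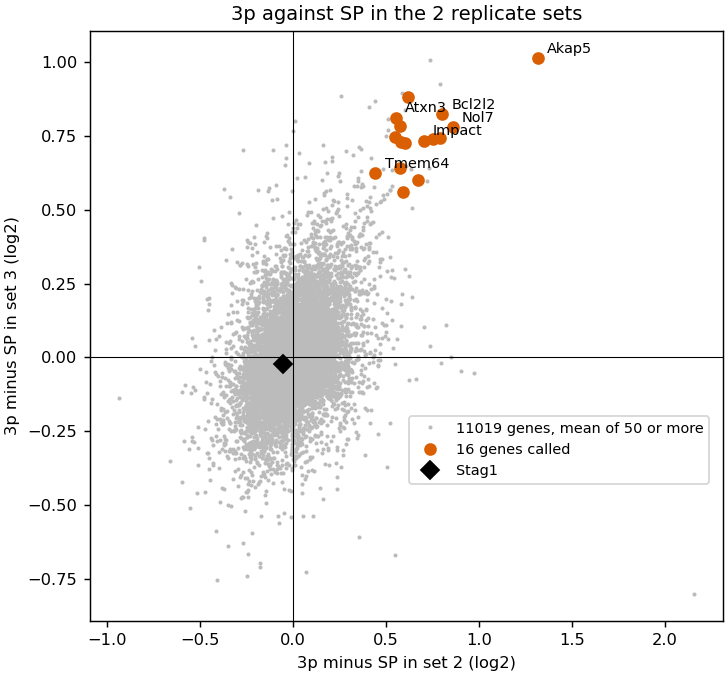
Log2 difference of 3p from SP in set 2 (x axis) and set 3 (y axis), where each grey point is 1 of 11019 genes, orange points are the 16 genes past the threshold and the diamond is *Stag1*. The orange points all lie in the upper right, at 0.44 or more in set 2 and 0.56 or more in set 3, and no point of the lower left is called.

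A total of 16 of 16490 genes (0.097%) differed between 3p and SP at an adjusted p under 0.05 (limma with Benjamini-Hochberg adjustment), all 16 (0.097%) higher under 3p and none lower (0%). At an unadjusted p under 0.05 there were 993 (6.02%). The count and its split depended on the fit. With only the 3p and SP libraries and the replicate block, limma called 318 genes, of which 199 were higher and 119 lower under 3p and which included all 16, and with no replicate block it called none. In each of the 16 the SP library was below scr and the lowest of the 5 siRNA groups in both sets, and the 3p library was nearer to scr than the SP library was. The median log2 level relative to scr was −0.75 under SP in set 2 and −0.76 in set 3, against −0.082 and 0.026 under 3p. The 16 were called on these same libraries as higher under 3p than SP, so that a low SP level follows in part from the selection. The share of all genes with SP the lowest was not counted.

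Of the genes of RNA, translation and protein entry, *Impact*, an imprinted gene whose product restrains the translation kinase Gcn2, had 3214 under 3p, 1971 under SP and 3378 under scr in set 2, and 3711, 2230.4 and 3926 in set 3. The 3p level was close to scr and the SP level 1.65-fold below 3p, a log2 difference of 0.72 (SE 0.069, limma, adjusted p = 0.00104). *Fxr1*, an RNA-binding protein of the fragile X family, had 4019 under 3p, 2645 under SP and 3476 under scr in set 2, and 3382, 2046 and 3302 in set 3. Its difference was 0.66 (SE 0.080, limma, adjusted p = 0.00402), with 3p above scr and SP below it in both sets. *Nol7*, a nucleolar protein, had 711 under 3p, 391 under SP and 544 under scr in set 2, and 475, 276 and 514 in set 3. Here 3p stood above scr in set 2 and below it in set 3, while SP was below scr in both, and the difference was 0.82 (SE 0.11, limma, adjusted p = 0.00643). *Ssr3*, a subunit of the translocon-associated complex of the endoplasmic reticulum, had 3169 under 3p, 2122 under SP and 3212 under scr in set 2, and 3539, 2057 and 3248 in set 3, and differed by 0.68 (SE 0.079, limma, adjusted p = 0.00385).

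Of the genes of chromatin and transcription, *Pbrm1*, a subunit of the PBAF chromatin remodeler, was below scr under both pools and lower under SP. It had 2091 under 3p, 1399 under SP and 2814 under scr in set 2, and 2526, 1621 and 3266 in set 3, and the difference between the pools was 0.61 (SE 0.080, limma, adjusted p = 0.00565). *Zbtb38*, a zinc finger protein that binds methylated DNA, had 475 under 3p, 308 under SP and 507 under scr in set 2, and 337, 182 and 328 in set 3. Its 3p level was near scr, and it differed between the pools by 0.75 (SE 0.097, limma, adjusted p = 0.00565). *Sertad2*, a transcriptional coregulator, had 994 under 3p, 679 under SP and 1170.2 under scr in set 2, and 883, 525 and 882 in set 3, with a difference of 0.65 (SE 0.094, limma, adjusted p = 0.0106). *Tceal8*, of the family of transcription elongation factor A-like proteins, had 1183 under 3p, 701 under SP and 1105 under scr in set 2, and 970.3, 581 and 959 in set 3, with a difference of 0.75 (SE 0.085, limma, adjusted p = 0.00385). In both genes SP was the lowest of the 3 in each set.

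Of the remaining genes, *Atxn3*, a deubiquitinase, had 721 under 3p, 490.4 under SP and 663 under scr in set 2, and 849, 483 and 690.2 in set 3, a difference of 0.68 (SE 0.085, limma, adjusted p = 0.00491). *Ube2q2*, a ubiquitin-conjugating enzyme, had 732 under 3p, 489 under SP and 763 under scr in set 2, and 811, 489 and 710.4 in set 3, a difference of 0.66 (SE 0.088, limma, adjusted p = 0.00609). For both ubiquitin genes SP was the lowest of the 3 in each set. *Bcl2l2*, which codes for the survival protein Bcl-w, had 259 under 3p, 148 under SP and 276 under scr in set 2, and 204, 115 and 198 in set 3, a difference of 0.81 (SE 0.11, limma, adjusted p = 0.00565). *Kif5c*, a kinesin heavy chain, had 1023 under 3p, 678 under SP and 1130.3 under scr in set 2, and 688, 466 and 771 in set 3, a difference of 0.58 (SE 0.078, limma, adjusted p = 0.0063). Its 3p level was slightly under scr in both sets. *Cep76*, a centrosomal protein, had 401 under 3p, 251 under SP and 491 under scr in set 2, and 513, 338 and 627 in set 3, a difference of 0.64 (SE 0.083, limma, adjusted p = 0.00565).

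*Akap5*, an anchoring protein of protein kinase A, had the largest of the 16 differences, 2.24-fold, at 155 under 3p, 61.8 under SP and 190.4 under scr in set 2, and 84.1, 41.2 and 76.6 in set 3. Its log2 difference was 1.17 (SE 0.19, limma, adjusted p = 0.0315), and the levels of the sets were far apart. *Fam132b* (Erfe), the hormone erythroferrone, had 172 under 3p, 98.7 under SP and 167 under scr in set 2, and 141, 84.2 and 114 in set 3, a difference of 0.77 (SE 0.13, limma, adjusted p = 0.034). *Tmem64*, a transmembrane protein, had the lowest 3p level relative to scr of the 16 (log2 −0.81 and −1.01), at 802 under 3p, 589 under SP and 1408 under scr in set 2, and 461, 299 and 931 in set 3. It differed by 0.53 (SE 0.091, limma, adjusted p = 0.0476) and was lowered by both pools. The genes just outside the threshold were *Dicer1*, the nuclease that makes microRNAs, and *Gramd4*. *Dicer1* had 3342 under 3p, 2578 under SP and 3402 under scr in set 2, and 3882, 2582 and 3532 in set 3 (log2 0.48 (SE 0.083, limma, adjusted p = 0.0519)), and *Gramd4* differed by 0.55 (SE 0.096, limma, adjusted p = 0.054).

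The direction of these 16 differences did not depend on a single library, but their number did. It was 21 without 3p replicate 2, 7 without 3p replicate 3, 6 without SP replicate 2 and 2 without SP replicate 3. *Impact* passed in all 4 of these fits, with log2 differences of 0.71 to 0.73, *Tceal8*, *Ssr3* and *Fxr1* in 3 of them, and *Fam132b* and *Tmem64* in none. All 16 passed in edgeR with the replicate block, which called 20 genes higher and none lower, and in DESeq2, which called 37 higher and 1 lower. In set 1, which held SP and scr but no 3p, 12, 11 and 9 of the 16 genes were below scr in the 3 SP libraries, with median log2 levels of −0.24, −0.31 and −0.14. *Stag1* was at 25.4%, 31.1% and 32.8% of scr in those libraries. The libraries of set 1 were shallow, with 1883691 to 4321867 reads outside *Rn45s*.

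**Figure D3:**
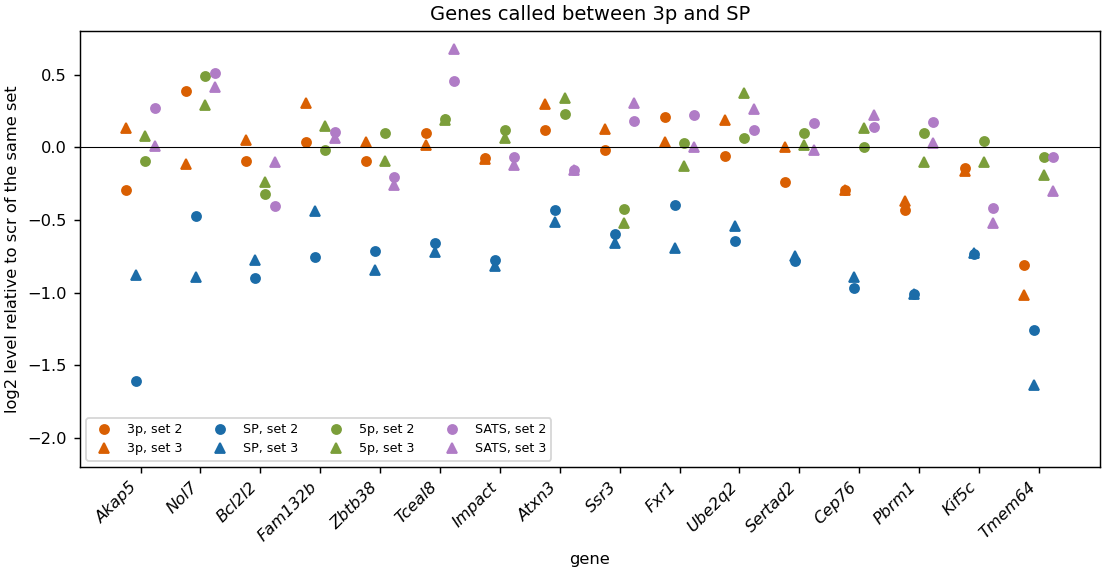
Log2 level relative to scr of the same set (y axis) of the 16 genes called between 3p and SP (x axis, by the size of the difference), for 3p, SP, 5p and SATS in sets 2 (circles) and 3 (triangles). The blue SP points are the lowest of each gene in both sets, between −1.64 and −0.39, while the orange 3p points lie nearer to 0, with *Tmem64* the lowest.

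In the fit of all 10 libraries no gene passed the threshold for a lower level under 3p than under SP, whereas 119 did in the fit of the 3p and SP libraries alone. In the former the smallest unadjusted p in that direction belonged to *Tnrc6a*, a GW182 protein that binds Argonaute. *Tnrc6a* had 1784 under 3p, 2404 under SP and 2557 under scr in set 2, and 1937, 2484 and 2379 in set 3, a log2 difference of −0.39 (SE 0.081, limma, adjusted p = 0.146). The next, *Tbcel*, a tubulin-binding cofactor, had 382 under 3p, 497 under SP and 458 under scr in set 2, and 388, 528 and 499 in set 3, a difference of −0.41 (SE 0.087, limma, adjusted p = 0.155). *Insig1*, which retains the regulator of cholesterol synthesis in the endoplasmic reticulum, had 699 under 3p, 895 under SP and 667 under scr in set 2, and 1213, 1531 and 1059.5 in set 3, a difference of −0.35 (SE 0.078, limma, adjusted p = 0.215). In *Tnrc6a* 3p stood under scr in both sets, and in *Insig1* SP stood above it. The other genes next in order were *Nav2*, *Abca7*, *Adgra3*, *Fam3c*, *Nhlrc3*, *Tnpo2* and *Trim2*, with log2 differences of −0.50 to −0.27 and adjusted p (limma) of 0.246 to 0.331.

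To see what the genes that were lower under one pool share in sequence, 3′ UTRs were searched for every run of 7 bases (heptamer) on the strand of the transcript. Of the 11019 genes, 10784 had a 3′ UTR in the annotation (GENCODE vM21, GRCm38, the longest UTR of each gene), and 16093 heptamers were held by at least 50 of them. Heptamers were ranked in set 2 by how much genes holding them differed between 3p and SP, with UTR length and GC content as covariates, and the values of set 3 were then read. This search was chosen with results of these data in view, and is a description with no test. A match is not a site of action, and the heptamers were not compared with the siRNA sequences. On the side of genes that were lower under SP, ACGGATC ranked first of 16093 in set 2 and first in set 3, and CGGATCA, which overlaps it by 6 bases, ranked second in both. Next in set 2 came GGATCAT (rank 3 in set 2, rank 5 in set 3), then AGGATCA (rank 4 in both), GGCAGAA (rank 5, then rank 3), GGATCAA (rank 6 in both), TGGATCA (rank 7 in both) and GCGGATC (rank 8, then rank 11). Of these 8 heptamers all but GGCAGAA contain the core GGATC, so that they overlap.

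ACGGATC was held by 127 genes (1.18% of UTRs). Relative to scr, these genes were shifted by −0.11 and −0.15 (mean log2, adjusted) under SP in sets 2 and 3. Under 3p the shift was 0.026 and 0.011, and under 5p 0.032 and 0.0081. SP alone therefore lay apart from scr, and 3p lay with 5p. The difference of 3p from SP was 0.14 and 0.16, and it was 0.11 and 0.13 over 118 of these genes. Those 118 were called neither between the pools nor as a fall in the mean of both against scr. For the 135 genes with CGGATCA (1.25%) the shift was −0.13 and −0.18 under SP, and −0.0042 and −0.021 under 3p. In the 3 SP libraries of set 1, the shift of the ACGGATC genes was 0.11, 0.084 and 0.24 and that of the CGGATCA genes −0.032, −0.0016 and 0.047, so that the lower level of sets 2 and 3 was not seen there.

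Of the 16 called genes, 6 held ACGGATC, namely *Cep76*, *Fxr1*, *Impact*, *Nol7*, *Pbrm1* and *Sertad2*, and 14 (87.5%) held at least 1 of the 8 heptamers, against 3279 (30.4%) of the 10784 UTRs. *Bcl2l2* and *Tmem64* held none. These genes took part in the ranking of set 2, so that their share is not independent of it. Unlike the ranking, these shares are not adjusted for UTR length, and a longer UTR holds more heptamers. The UTRs of the 16 genes have 1020 (*Nol7*) to 4286 (*Sertad2*) bases, against a median of 1246 over all UTRs searched. The stretches of 4 of these UTRs are shown because they carry the heptamer that ranked first, which is in capitals.
Fxr1: agatagaatACGGATCgccagtctt
Nol7: atcattgtaACGGATCattataaaa
Pbrm1: tagaatataACGGATCagtactcat
Sertad2: tatcaactcACGGATCatttttaaa
In GRCm38 they lie on the plus strand at chr3:34069157-34069181, chr13:43401941-43401965, chr14:31120401-31120425 and chr11:20652334-20652358. *Nol7*, *Pbrm1* and *Sertad2* also hold CGGATCA, at the next base.

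GGCAGAA, held by 1642 genes (15.2%), shares no such core and had a smaller shift, of −0.025 and −0.037 under SP and 0.0037 and −0.00058 under 3p. It grew with the number of copies. The difference of 3p from SP in set 3 was −0.0065 in 9142 genes with no copy, 0.031 in 1425 with 1 copy and 0.071 in 217 with 2 or more, and in set 2 it was −0.0051, 0.024 and 0.060. Of the called genes 9 hold it, namely *Akap5*, *Atxn3*, *Cep76*, *Fam132b*, *Fxr1*, *Kif5c*, *Ssr3*, *Ube2q2* and *Zbtb38*.

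The second comparison asked what 3p and SP share against scr, as the mean of both pools. At an adjusted p under 0.05 (limma with Benjamini-Hochberg adjustment), 141 of 16490 genes changed (0.855%). Of these 50 rose (0.303%) and 91 fell, *Stag1* included (0.552%). Both pools were on the same side of scr in both sets for all 50 rises and for 89 of the 91 falls. The genes were called on these same libraries, so that this follows largely from the selection. A call for the mean does not require that each pool alone differed from scr. The 5p libraries were on the same side of scr as the pools, in both sets, for 38 of the rises and 46 of the falls. The share of all genes for which this held was not counted. The median log2 fall was −0.49 (−0.50 under 3p and −0.52 under SP), and the median rise was 0.50 (0.48 and 0.53). 3p, SP and 5p were each read against the same scr libraries, so that an error of an scr library moves all of them. The count was 233 without 3p replicate 2, 86 without 3p replicate 3, 69 and 44 without SP replicates 2 and 3, and 8 and 4 without scr replicates 2 and 3. Of the 141 genes, *Stag1*, *Tmem64* and *Kif5b* alone passed without scr replicate 3, and these with *Btg2*, *Jmy* and *Pbrm1* were among the 8 that passed without scr replicate 2.

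Of the genes that fell, *Tmem64* had the largest fall after *Stag1* and *Inhbb* among those with a mean of at least 50. At the values given above, it fell to 0.441 of scr, by log2 −1.18 (SE 0.079, limma, adjusted p = 6.05e-06). *Inhbb*, the activin beta B subunit, had 177 under 3p, 125 under SP and 255 under scr in set 2, and 15.4, 20.2 and 80.5 in set 3, a log2 change of −1.45 (SE 0.29, limma, adjusted p = 0.0329). It was low in set 3, and its change was −1.86 without scr replicate 2 and −1.04 without scr replicate 3. *Shtn1* (shootin, of axon growth) had 65.2 under 3p, 43.1 under SP and 103 under scr in set 2, and 48.0, 25.4 and 81.7 in set 3, a change of −1.07 (SE 0.13, limma, adjusted p = 0.00221). *Kif5b*, a kinesin heavy chain and paralog of *Kif5c*, had 3062 under 3p, 2419 under SP and 4455 under scr in set 2, and 3331, 2575 and 5396 in set 3. It fell by log2 −0.80 (SE 0.064, limma, adjusted p = 4.39e-05), with SP below 3p in both sets. *Stag1*, *Tmem64* and *Kif5b* passed in all 6 fits that left out 1 library.

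*Axl*, a receptor tyrosine kinase, and *Jmy*, an actin nucleator and cofactor of p53, went the other way between the pools. *Axl* had 489 under 3p, 708 under SP and 1028 under scr in set 2, and 177, 189 and 316 in set 3, a change of −0.79 (SE 0.11, limma, adjusted p = 0.0051). *Jmy* had 444 under 3p, 582 under SP and 809 under scr in set 2, and 451, 548 and 903 in set 3, a change of −0.77 (SE 0.075, limma, adjusted p = 0.000307). In both genes 3p was below SP in each set, by log2 −0.32 and −0.34 (limma, adjusted p = 0.747 and 0.331). The 5p libraries separated these genes, since *Axl* was also low there (622 and 137) and *Jmy* was not (922 and 1053). *Tcf15*, a transcription factor of differentiation, changed by −0.76 (SE 0.16, limma, adjusted p = 0.037), *Pmel*, a melanosome protein, by −0.75 (SE 0.16, limma, adjusted p = 0.0401), and *Setmar*, a histone methyltransferase, by −0.75 (SE 0.15, limma, adjusted p = 0.0332). The change of *Tcf15* was −1.11 without scr replicate 2 and −0.41 without scr replicate 3.

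Of the genes that rose, *Btg2*, an antiproliferative target of p53, had 1640.3 under 3p, 1768 under SP and 1228 under scr in set 2, and 1578, 1612 and 826 in set 3. It rose 1.64-fold, by log2 0.71 (SE 0.097, limma, adjusted p = 0.00379), and 3p and SP did not overlap with scr. *Ccng2* (cyclin G2) had 198 under 3p, 242 under SP and 163 under scr in set 2, and 234, 240.4 and 123 in set 3, a rise of 0.68 (SE 0.12, limma, adjusted p = 0.0152). *Ddx4*, the germline helicase Vasa, had 414 under 3p, 395 under SP and 313 under scr in set 2, and 659.8, 503 and 288 in set 3, a rise of 0.68 (SE 0.13, limma, adjusted p = 0.0216). Under 5p *Btg2* stood at 1125 and 816 and *Ddx4* at 292 and 301, near scr, while *Ccng2* was above scr in both sets, at 170.4 and 164. *Synm* (the intermediate filament synemin), *Satb1* (a chromatin organizer), *Alox5* (a lipoxygenase), *Tbc1d8*, *Ctxn1*, *Pm20d1* and *Gbp3* (a guanylate-binding protein) rose by log2 0.58 to 0.67 (limma, adjusted p = 0.0104 to 0.0498). In set 3 the Luc library, the other control siRNA, lay between scr and the pools for these 7 genes. *Alox5* had 106 under Luc, against 73.4 under scr, 110 under 3p and 119 under SP, *Synm* 302 against 227, 344 and 341, and *Pm20d1* 128 against 89.3, 139.6 and 139.7. Over the 50 rises Luc stood above scr by a median of 0.20 (log2), and both pools stood above Luc by a median of 0.38, against 0.55 above scr. Both pools were above Luc in 49 of the 50 (98%; 37.7% of all genes) and above untreated cells of set 2 in 46 (92%; 35.3%). For the 91 falls the median was −0.49 from Luc and −0.53 from scr. None of the named rises differed between the pools beyond the threshold, with log2 differences of 3p from SP of −0.19 to 0.23.

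The contrast of the pools with each other uses no scr library and is orthogonal to their mean. It was read for the genes called for that mean against scr. Of the 91 falls, SP was the lower in both sets in 38 and 3p in 37, and of all 11019 genes SP was the lower in both sets in 29.3% and 3p in 34.1%. Of the falls, 7 were also called between the pools, against 0.097% of all genes, and for 62 the 95% interval of the difference lay within ±0.5 (log2). Of the 50 rises, SP was further from scr in both sets in 26 and 3p in 9, none was called between the pools (4 at an unadjusted p under 0.05 by limma), and for 43 the interval lay within ±0.5. The genes called in both contrasts include *Tmem64*, *Pbrm1*, *Impact* and *Zbtb38*, in which SP was the lower. For 3p alone against scr, *Tmem64* passed (limma, adjusted p = 0.000624) and the others did not. Their adjusted p (limma) was 0.0586 for *Pbrm1*, 0.754 for *Impact* and 0.953 for *Zbtb38*. A call for the mean of both pools can therefore rest mainly on SP.

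For falls in the mean of both pools against scr, other heptamers came first. Ranked in set 2 by the mean of both pools against scr, GTATAGA came first and ATGATTC second, and they held these ranks in set 3. For the 855 genes with GTATAGA (7.93% of UTRs), the shift was −0.061 and −0.088 under 3p and −0.041 and −0.057 under SP in sets 2 and 3. For the 830 genes with ATGATTC (7.70%) it was −0.048 and −0.071 under 3p and −0.044 and −0.054 under SP. Under 5p both groups of genes lay at scr, at 0.0041 and −0.0057 for GTATAGA and 0.0059 and 0.011 for ATGATTC. The shift of GTATAGA genes was larger under 3p than under SP in both sets, and in set 3 GTATAGA ranked first on the side of genes lower under 3p than SP. With the number of copies, the shift in set 3 went from 0.0076 in 9929 genes with none to −0.080 in 775 with 1 and −0.17 in 80 with 2 or more under 3p, and from 0.0049 to −0.051 and −0.11 under SP.

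Of the 91 falls, 53 (58.2%) held GTATAGA or ATGATTC, against 1543 (14.3%) of the UTRs, and 40 (44.0%) held GTATAGA. Of the 50 rises, 4 (8%) held either. The falls took part in the ranking, and these shares are not adjusted for UTR length. Stretches of UTRs with GTATAGA in capitals are shown for *Tmem64*, lower under SP, for *Jmy*, with the lower values under 3p, and for *Pbrm1*, which holds both kinds of heptamer.
Tmem64: tgagtgaaaGTATAGAgttcgcaat
Jmy: ttattctgtGTATAGAactttagga
Pbrm1: gagctcagtGTATAGAccaggctag
They lie in GRCm38 at chr4:15283704-15283728 (plus strand), chr13:93434415-93434439 (minus strand) and chr14:31120134-31120158 (plus strand). *Jmy* holds 3 copies of GTATAGA. Among the falls, the 24 genes with GTATAGA or ATGATTC and none of the 8 heptamers of the first search were lower under 3p in both sets in 16 cases and under SP in 3. The 15 with at least 1 of the 8 and neither of the others were lower under SP in 10 cases and under 3p in 4. The 29 with both kinds were lower under SP in 17 and under 3p in 9, and the 23 with neither in 8 each. The 8 heptamers were ranked by lower levels under SP than under 3p in these data, so that these counts are not independent of that ranking.

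The *Stag1* transcript itself holds 3 of the 5 heptamers described in detail before its stop codon, shown with 1 further base after the capitals.
ACGGATC in Stag1: gtgaaaattactgACGGATCt
GTATAGA in Stag1: ttccactcatctcGTATAGAa
ATGATTC in Stag1: taggactgacacgATGATTCa
They lie in exon 22 (chr9:100908688-100908708), exon 29 (chr9:100947144-100947164) and exon 30 (chr9:100951635-100951655) of 34 exons, on the plus strand of GRCm38. ATGATTC occurs again in exon 33, and TGGATCA with its overlapping neighbor GGATCAT in exon 24. The heptamers CGGATCA and GGCAGAA do not occur in this transcript, and its 3′ UTR holds none of the 5. The transcript has 6186 bases, and how often other transcripts of such length hold these heptamers was not counted. A match here is therefore no more than a description.

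**Figure D4:**
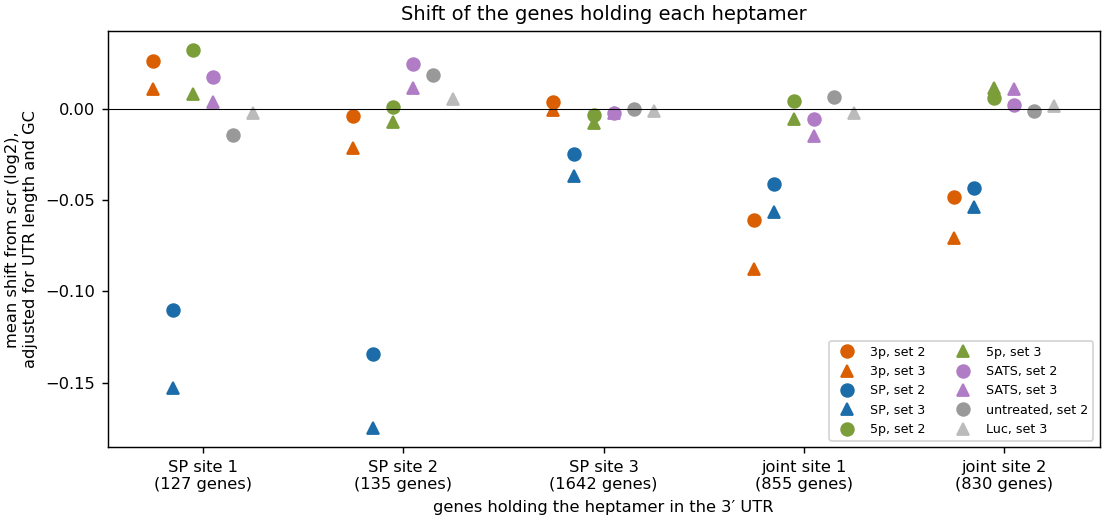
Mean log2 shift from scr of the same set, adjusted for UTR length and GC content (y axis), of the genes whose 3′ UTR holds a heptamer (x axis), for each siRNA or control in sets 2 (circles) and 3 (triangles). SP site 1 stands for ACGGATC, SP site 2 for CGGATCA and SP site 3 for GGCAGAA, where the SP points alone lie low, and joint site 1 stands for GTATAGA and joint site 2 for ATGATTC, where both the 3p and the SP points lie low and 5p, SATS and the controls stay near 0.

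The genes were then read by lists of function, against scr for both pools together and between the pools. Of 24 genes of naive pluripotency, 4 fell and none rose, against 0.552% and 0.303% of all genes, and 16 (66.7%) had an unadjusted p under 0.05, against 13.3% of all genes. The list had a median log2 change of −0.28 (−0.13 in set 2 and −0.41 in set 3) against −0.0040 for all genes. Between 3p and SP none of the 24 was called, which is near the 0.097% of all genes, and the median was −0.0088. *Fgf4*, a growth factor of mESCs, had 981 under 3p, 1128 under SP and 1505 under scr in set 2, and 672, 910.1 and 1477 in set 3, a change of −0.72 (SE 0.11, limma, adjusted p = 0.0067). *Tfcp2l1* and *Prdm14*, transcription factors of the naive network, changed by −0.44 (SE 0.075, limma, adjusted p = 0.0125) and −0.66 (SE 0.13, limma, adjusted p = 0.0352). *Tbx3* had 582 under 3p, 605 under SP and 868 under scr in set 2, and 198, 176 and 252 in set 3, a change of −0.49 (SE 0.095, limma, adjusted p = 0.0285). *Tfcp2l1* and *Tbx3* were also below scr under 5p in both sets, and *Fgf4* was not. *Fgf4* and *Tfcp2l1* hold GTATAGA in the 3′ UTR, and *Tbx3* and *Prdm14* hold neither joint heptamer. The UTR of *Tfcp2l1* has 7734 bases, against a median of 1246, and a longer UTR holds more heptamers.

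Of the 12 genes of core pluripotency none passed, against 0.855% of all genes, with a median of −0.085. The receptors and ligands of the signals that hold mESCs in this state include *Lifr*, the receptor of LIF, which had 1289.5 under 3p, 1300.2 under SP and 1886 under scr in set 2, and 976, 1060.1 and 1557 in set 3 and fell by log2 −0.58 (SE 0.069, limma, adjusted p = 0.00182). It was the only one of 10 genes of the LIF list called, while of all genes 0.552% fell and 0.303% rose. *Lifr* too holds GTATAGA, in a 3′ UTR of 6320 bases. *Bmp4*, the only one of 13 genes of the BMP list called, changed by −0.46 (SE 0.093, limma, adjusted p = 0.0352), and *Spry4*, a feedback inhibitor of FGF signaling, by −0.53 (SE 0.095, limma, adjusted p = 0.019). *Lefty1*, a target of Nodal, rose by log2 0.55 (SE 0.090, limma, adjusted p = 0.0112) and was the only one of 15 genes of its list called. *Lefty1* also holds GTATAGA, as does *Sox2*, which was not called. In set 3 the summed mESC markers were 35887 scaled reads under 3p, 37145 under SP and 41798 under scr, and in set 2 42676, 43012 and 43032. In bulk RNA fewer cells of a type and less RNA per cell cannot be told apart.

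Of 22 targets of p53, *Btg2*, *Cdkn1a* and *Ei24* rose and none fell, against 0.303% and 0.552% of all genes, with a median of 0.15. *Cdkn1a*, the cell cycle inhibitor p21, had 1692 under 3p, 1619 under SP and 1316 under scr in set 2, and 1104, 963 and 718 in set 3, a rise of 0.43 (SE 0.074, limma, adjusted p = 0.0152). Of the 6 fits that left out 1 library, *Btg2* passed in 5, *Cdkn1a* in 3 and *Ei24* in 1. Of 12 germline genes *Ddx4* and *Stk31* rose, against 0.303% of all genes, with a median of 0.34, and between 3p and SP the median of the list was 0.25, with none called and 4 (33.3%) at an unadjusted p under 0.05, against 6.02% of all genes. *Ddx4* passed in 3 of the 6 fits that left out 1 library and *Stk31* in 1. *Taf7l*, of these 4, had 42.0 under 3p, 32.6 under SP and 28.5 under scr in set 2, and 91.6, 39.3 and 39.7 in set 3, a difference of 0.78 (SE 0.23, limma, adjusted p = 0.444). The germline markers summed to 2805 and 3045 scaled reads under 3p, 2590.4 and 2668 under SP, and 2291 and 2047 under scr. Among 13 genes of RNA interference, *Ago1* rose under both pools by log2 0.47 (SE 0.094, limma, adjusted p = 0.0328), and *Dicer1* and *Tnrc6a* had opposite differences between the pools, as given above.

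Between 3p and SP no member of any list was called except *Impact*, 1 of 21 imprinted genes. Of all genes 0.097% were called, so that lists of this size would mostly hold none. The Wnt and beta-catenin list had 5 of 22 genes (22.7%) at an unadjusted p under 0.05, against 6.02% of all genes, among them *Lef1*, a transcription factor of the pathway, at 610.5 under 3p, 456 under SP and 435 under scr in set 2, and 707, 501 and 651 in set 3, a difference of 0.46 (SE 0.11, limma, adjusted p = 0.233). *T* (brachyury), its target in the primitive streak, had 179 under 3p, 149 under SP and 167 under scr in set 2, and 288, 155 and 281 in set 3, a difference of 0.57 (SE 0.15, limma, adjusted p = 0.363). *Wnt3*, a ligand, was not on this list but on that of primitive streak and mesoderm. It had 425 under 3p, 329 under SP and 345 under scr in set 2, and 372, 228 and 277 in set 3, a difference of 0.54 (SE 0.12, limma, adjusted p = 0.221). All 3 were higher under 3p in both sets, and none passed the threshold. The median of the whole Wnt list was 0.019. The cholesterol list had a median of −0.086, with *Insig1*, *Sqle* and *Cyp51* lower under 3p and *Ebp* higher, none of them called. Of 21 cohesin genes only *Stag1*, the target, changed against scr, where 0.855% of all genes did. *Rad21*, the subunit that closes the ring, differed between the pools by −0.17 (SE 0.072, limma, adjusted p = 0.767).

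**Figure D5:**
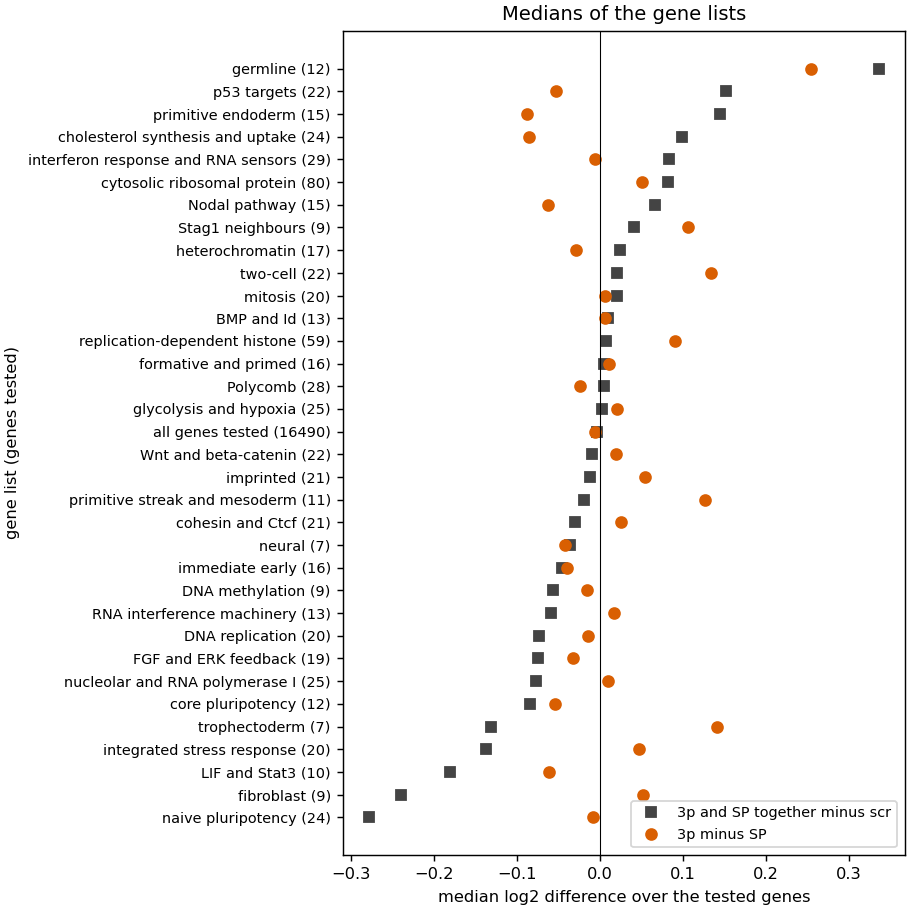
Median log2 difference over the tested genes of each list (x axis) for 3p and SP together against scr (dark squares) and for 3p against SP (orange circles). Lists are in the order of the first (y axis, number of genes tested in parentheses). The naive pluripotency list has the lowest square, at −0.28, with its circle at −0.0088, and the germline list has the highest square and circle, at 0.34 and 0.25.

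The third comparison set both pools against 5p, which lowers *Stag1* as far and does not use scr. Of 16490 genes 1134 differed (6.88%), 659 higher under the pools (4%) and 475 lower (2.88%, limma with Benjamini-Hochberg adjustment). *Sycp3*, a protein of the synaptonemal complex, had 252 and 357 under 3p, 232 and 415 under SP, and 71.6 and 90.7 under 5p in sets 2 and 3, a log2 difference of 1.91 (SE 0.14, limma, adjusted p = 9.6e-06). The scr libraries held 213 and 264, nearer to the pools than to 5p. *Selt* (selenoprotein T), *Tmem168*, *Ndufa5* (of respiratory complex I) and *Nefm* (a neurofilament) were higher under the pools by log2 1.53, 1.39, 1.31 and 1.22 (limma, adjusted p = 5.96e-06 to 0.00218). In each of the 5 genes the 5p library was the lowest of 3p, SP, scr and 5p in both sets.

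On the lower side stood *Jmy*, *Tmem64* and *Inhbb*, which had also fallen against scr, at log2 differences from 5p of −0.97, −1.05 and −1.31 (limma, adjusted p = 1.13e-05, 9.6e-06 and 0.0152). *Foxn4*, a forkhead factor, had 78.5 and 30.4 under 3p, 77.6 and 36.4 under SP, and 97.4 and 106 under 5p, a difference of −0.98 (SE 0.23, limma, adjusted p = 0.0199). *Spink1*, a trypsin inhibitor, had 63.2 and 26.9 under 3p, 56.0 and 24.6 under SP, and 92.1 and 66.2 under 5p, a difference of −0.98 (SE 0.20, limma, adjusted p = 0.00953), and its scr libraries held 47.0 and 32.9. For *Jmy* and *Tmem64* the 5p level was near scr, and for *Spink1* the 5p and the SATS levels (74.4 and 64.3) were both above scr in each set. The number of genes was 698 without 3p replicate 3, 591 without SP replicate 3 and 147 without 5p replicate 3, and without 5p replicate 3 *Inhbb*, *Foxn4* and *Spink1* no longer passed, with *Foxn4* at −0.52 and *Nefm* at 0.66.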

How the data were processed

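RNA depleted of rRNA was sequenced from E14 mESCs after 24 h of siRNA. Per the methods, reads were mapped to mm10 by hisat2 and assigned to genes by featureCounts. The authors deposited a signal, these counts divided by DESeq2 size factors (DESeq2 version 1.14.1 in the submitters' notes), for 18659 genes in 16 libraries. The other deposited table, of set 1 alone, was not used. Dividing each library's signal by the value of 1 read gave whole reads for 100% of values (within 0.001 reads), from which depth and the count tests were computed. On those reads edgeR 4.0.16 called 20 genes between 3p and SP. Depth bounds counting error only.

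The main test used limma 3.58.1 (lmFit, then eBayes with trend) in R 4.3.3 on log2(value + 1) of the signal, over the 10 libraries of scr, SP, 3p, 5p and SATS in sets 2 and 3, for the 16490 genes whose values summed to 10 or more, with the replicate set as a block, two-sided, at a Benjamini-Hochberg adjusted p under 0.05. For low genes the added 1 makes fold changes too small. The set numbers come from the labels. Same-numbered libraries deviated together from their group means in each of the 10 pairs of groups (r = 0.81 to 0.93, mean 0.86, over 11019 genes), so the block pairs the libraries.

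Genes named were, per contrast, the 10 largest rises and the 10 largest falls (5 and 5 against 5p) past the threshold with a mean of at least 50 and the same direction in both sets, with free places given to the smallest p, then *Stag1* and *Stag2*, and up to 4 members of each list by p. The other genes called between 3p and SP, *Dicer1*, *Gramd4*, *Pbrm1*, *Ago1* where named and the heptamers were chosen after their values were seen. The comparison, the members and the gene lists were chosen with earlier results of these data known. On simulated data for 3p against SP (16437 genes), the fit recovered 90% of 100 genes changed 1.5-fold and 100% of 100 changed 2-fold, with 8 false calls. The simulated counts had no replicate set effect and no other difference between groups. The changed genes were drawn from those with a mean of at least 100 reads, so that recovery over all tested genes of the real libraries may be lower. Of 18659 symbols, 18467 were matched to GENCODE vM21. Alternatives were another pseudocount (0.1 and 10), no filter or a mean of 50, TMM scaling, edgeR, DESeq2 1.42.0, no block, the compared groups alone and leaving out each library.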

Additional observations from a re-analysis of the deposited data

How the results depend on the processing

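The replicate set was part of each fit. With no replicate block, 0 genes were called between 3p and SP (limma; 16 with it), 1 for both pools against scr (141 with it) and 1 against 5p (1134 with it). Fitted on the compared groups alone with the block, the counts were 318 between 3p and SP (199 higher and 119 lower under 3p) and 362 against scr, and with DESeq2 38 and 260. The pseudocounts, filters, TMM scaling and edgeR gave 13 to 20 genes between 3p and SP, 95 to 160 against scr and 977 to 1151 against 5p. Leaving out 1 library gave 2 to 21 genes between 3p and SP, 4 to 233 against scr and 147 to 1200 against 5p. With a group of 1 library the spread is taken from the other groups. The 3p minus SP difference of *Stag1* (log2) ranged from −0.11 to 0.039 and was 0.022 without 3p replicate 3 and 0.039 without SP replicate 2, and that of *Stag2* ranged from −0.0094 (without SP replicate 2) to 0.080. Why the counts moved with the libraries was not tested. The median SE of a difference between the pools was 0.10 (log2) with 2 libraries a group.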

Other observations

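Against scr of the same set, the log2 differences of set 2 and set 3, which have no library in common, correlated across 11019 genes at r = 0.29 for 3p with 3p and 0.38 for SP with SP. Across the pools the values were 0.19 for 3p in set 2 with SP in set 3 and 0.24 for SP in set 2 with 3p in set 3. The 5p siRNA gave 0.54 with itself. With 3p it gave 0.17 (3p in set 2) and 0.22 (3p in set 3), and with SP 0.064 (SP in set 2) and 0.16 (SP in set 3). The values of 3p with 5p were thus near those of 3p with SP. They also depend on how far each siRNA correlated with itself, which was highest for 5p, so that they do not rank closeness to 3p. Within each set the 3p library was nearest to SP. The median absolute log2 difference was 0.0901 and 0.0849 from SP, and 0.115 and 0.159 from 5p, in sets 2 and 3. Genes are not independent replicates, and no test was made.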
